A study of Arabidopsis thaliana with 15 samples.

Results

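The change of the transcript response of Arabidopsis thaliana seedlings to GR244DO between 2 h and 4 h of treatment was measured by RNA sequencing in 12 of the 15 libraries of the series. GR244DO is a stereoisomer of GR24, a synthetic strigolactone, with the configuration of 4-deoxyorobanchol. The plants were whole wild-type seedlings of the Col ecotype, 10 days old, moved from plates to liquid medium for 2 h before treatment. The groups were 5 µM GR244DO for 2 h, 5 µM GR244DO for 4 h, solvent for 2 h and solvent for 4 h, with 3 libraries in each. The labels do not say whether the 3 libraries of a group came from separate cultures, so p-values measure the spread between these libraries, which may be technical. In bulk samples of whole seedlings, fewer cells of a type and less RNA per cell cannot be told apart.

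Strigolactones are carotenoid-derived hormones that restrain shoot branching and are exuded by roots. They are bound by the α/β-hydrolase D14, which with the F-box protein MAX2 marks the repressors SMXL6, SMXL7 and SMXL8 for degradation. The related receptor KAI2 acts through MAX2 on SMAX1 and SMXL2, and several transcripts, among them DLK2, are known to respond through these pathways.

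For each gene the response was the GR244DO level minus the solvent level on the log2(RPKM + 1) scale, and the response change was the response at 4 h minus the response at 2 h. RPKM is the number of reads scaled to gene length and to the reads assigned to genes. Of 32678 named genes, 19053 reached 1 RPKM in at least 3 of the 12 libraries and were tested. Since a response is a difference, it can change because the GR244DO libraries moved over time, because the solvent libraries moved, or both. Each called gene named by the rule stated under processing is given with its change over time in GR244DO and in solvent.

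The libraries held 24.8 to 37.4 M reads (M, 1e+06) assigned to genes, and 18442 to 18891 genes were at 1 RPKM or more in each. The median standard error of the response change was 0.121. All 22 root marker genes on the list used and 19 of 20 shoot marker genes were detected in every library, so the seedlings held both organs. Some replicates were much closer to each other than others. Solvent replicates 1 and 3 at 4 h had a chi-square per degree of freedom of 1.14, solvent replicates 2 and 3 at 2 h had 1.79, and GR244DO replicates 1 and 2 at 4 h had 1.93, while the other 9 pairs had 4.01 to 18.06. Each of these libraries was counted as a sample. Where averaging the close pairs ended the call of a gene named by rule, its adjusted p from that fit is given.

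The response changed in 398 of 19053 genes (2.09%) at a limma adjusted p under 0.05. It was higher at 4 h than at 2 h in 215 genes (1.13%) and lower in 183 (0.96%). Most changes were small, and 13 genes passed when a change of at least 2-fold was also required. With the 3 close pairs averaged, 63 genes passed, 34 higher and 29 lower, and all 63 were among the 398. The split between directions moved with scaling, as 54% of called genes were higher with the values as deposited, 66.3% (266 of 401) after quantile normalization, 64.4% (224 of 348) after median-of-ratios scaling and 68.6% (269 of 392) with gene length trends removed. Leaving out 1 library gave 223 to 594 called genes, with 594 without solvent 2 h replicate 1. That library had a chi-square per degree of freedom of 15.79 against replicate 2 and 18.06 against replicate 3 of its group. The count was 223 without GR244DO 4 h replicate 1, 246 without GR244DO 4 h replicate 2, 260 without GR244DO 2 h replicate 2, 236 without GR244DO 2 h replicate 3, 255 without solvent 2 h replicate 2, 248 without solvent 4 h replicate 1 and 243 without solvent 4 h replicate 3. In all, 194 of the 398 genes stayed called whichever library was left out.

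Both sides of the comparison moved. In the 215 genes with a higher response at 4 h, the change over time passed the test in solvent only for 86 genes, in GR244DO only for 61, in both with opposite directions for 30 and in both with the same direction for 38. In the 183 genes with a lower response, the counts were 67 in solvent only, 60 in GR244DO only, 35 in both with opposite directions and 21 in both with the same direction. Over all genes tested, 21.6% changed over time with GR244DO and 24.7% changed with solvent. The solvent libraries moved farther than the GR244DO libraries in 129 of the 215 and 94 of the 183 genes, beside 51.9% of all genes tested.

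**Figure D1:**
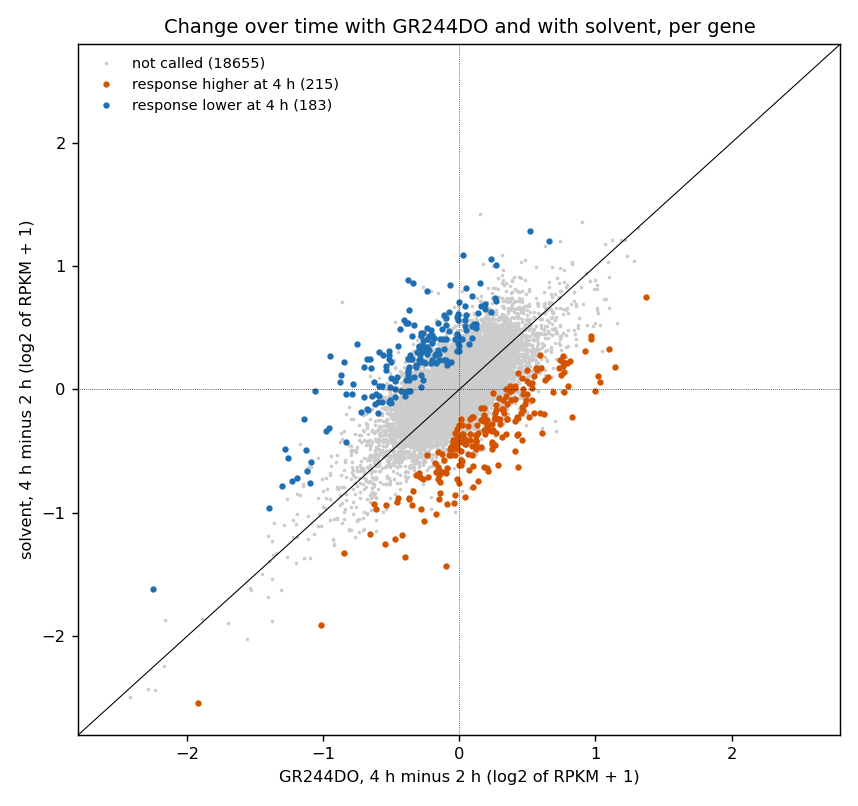
Change from 2 h to 4 h with GR244DO (x axis) and with solvent (y axis) for each of the 19053 genes tested, as log2 differences of RPKM + 1. Genes below the diagonal line had a higher response at 4 h (215 called, orange) and genes above it a lower one (183 called, blue), and both groups extend along both axes.

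The response at 4 h alone passed the test in 177 of the 215 higher genes and 154 of the 183 lower genes. Over all genes, 1.61% passed at 2 h and 11.7% at 4 h. The sign of the fitted response differed between the times in 125 of the higher and 126 of the lower genes, many of them with a value at 2 h that did not pass the test. Calling genes on the difference of the responses favours opposite signs, and the share over all genes was not counted. The contrasts share libraries and are not independent of each other.

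Among the genes of strigolactone and karrikin signalling and synthesis, the response of DLK2 changed most. DLK2, a paralogue of D14 and KAI2, had 44.3, 44.9 and 48.0 RPKM with GR244DO and 23.2, 26.7 and 24.7 RPKM with solvent at 2 h. At 4 h it had 49.4, 48.3 and 54.0 RPKM with GR244DO and 14.5, 14.8 and 14.1 RPKM with solvent. The GR244DO libraries lay above the solvent libraries at both times, and all 3 solvent libraries were lower at 4 h than at 2 h. Its response was 0.86 at 2 h and 1.74 at 4 h on the log2 scale, a change of 0.88 (SE 0.09, limma adjusted p = 0.000319). The change over time was -0.74 in solvent (limma adjusted p = 2.65e-06) and 0.14 in GR244DO (limma adjusted p = 0.122), so the solvent libraries moved and the change in GR244DO did not pass.

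Of 19 strigolactone and karrikin genes tested, 2 had a higher response at 4 h, none a lower one, and 17 did not pass. At 2 h, 8 of the 19 were already higher with GR244DO and 1 was lower, beside 1.11% and 0.504% of all genes. By 4 h, 11 were higher and 3 lower, beside 6.42% and 5.3% of all genes. The genes of the SMXL repressors were among those higher at both times. SMXL7 had 18.3, 21.1 and 19.6 RPKM with GR244DO against 10.6, 11.1 and 10.6 RPKM with solvent at 2 h, and 16.9, 17.8 and 15.8 RPKM with GR244DO against 8.47, 8.99 and 7.90 RPKM with solvent at 4 h. The groups did not overlap at either time, and its response change of 0.11 (SE 0.10) did not pass (limma adjusted p = 0.744). SMXL8 changed by 0.15 (SE 0.13) and SMXL6 by 0.16 (SE 0.09), and neither passed (limma adjusted p = 0.712 and 0.51).

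The karrikin-pathway repressor genes SMXL2 and SMAX1 were likewise higher with GR244DO at both times. SMXL2 responded by 0.63 at 2 h and 0.91 at 4 h, and its change of 0.29 (SE 0.08, limma adjusted p = 0.0871) passed only with median-of-ratios scaling among the settings tried. SMAX1 had a change of 0.04 (SE 0.07, limma adjusted p = 0.897). The B-box transcription factor gene BBX20 responded by 1.04 at 2 h and 1.17 at 4 h, and the F-box gene KUF1 by 0.78 and 0.66, with changes of 0.14 and -0.12 that did not pass.

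The other called gene was MYB75, a transcription factor gene that activates the anthocyanin pathway. It had 2.41, 2.55 and 2.25 RPKM with GR244DO at 4 h and 0.777, 0.876 and 1.04 RPKM with solvent at 4 h, against 1.01, 1.05 and 0.958 RPKM with GR244DO and 0.661, 0.526 and 0.686 RPKM with solvent at 2 h. The GR244DO libraries moved, by 0.76, while the change of 0.22 in solvent did not pass, and the response change was 0.54 (SE 0.12, limma adjusted p = 0.0358). MYB75 had 32.7 reads on average, and the call ended without any 1 of 9 of the 12 libraries (limma adjusted p up to 0.108). It also ended with the close pairs averaged (0.225), limma-voom on reads (0.252), a pseudocount of 0.1 (0.146), a variance trend on reads (0.0745) and all 15 libraries in the fit (0.062).

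The receptor genes and MAX2 showed no called change of response. D14 was lower with GR244DO at both times, by -0.33 at 2 h and -0.30 at 4 h, while it fell over time in both GR244DO (-0.69) and solvent (-0.73). KAI2 had responses of 0.01 and 0.02. MAX2, shared by both pathways, had a response change of -0.09 (SE 0.11). Of the remaining genes, LBO and CCD8 of strigolactone synthesis had all GR244DO libraries below the solvent libraries at both 2 h and 4 h. Their response changes of -0.27 and -0.12 did not pass (limma adjusted p = 0.343 and 0.776). MAX1, SMXL3, SMXL4, SMXL5 and HY5, a light-signalling transcription factor, had response changes between -0.08 and 0.18.

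**Figure D2:**
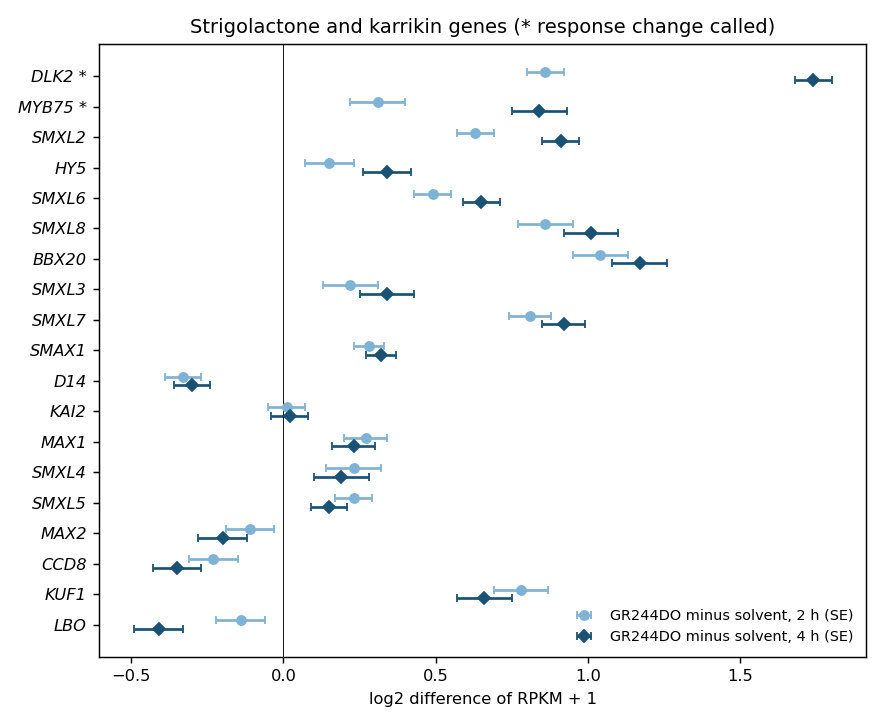
Response to GR244DO (GR244DO minus solvent, log2 of RPKM + 1, with standard errors, 3 libraries a group) at 2 h and 4 h for the 19 strigolactone and karrikin genes tested, ordered by response change. DLK2 had 0.86 at 2 h and 1.74 at 4 h and SMXL7 had 0.81 and 0.92, and the asterisks mark the 2 called genes.

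Genes of xenobiotic detoxification had the highest share of called genes of the 24 lists. These encode cytochrome P450s, glutathione transferases and glucosyltransferases that modify and conjugate foreign or reactive compounds, and oxophytodienoate reductases. All 24 lists were chosen with earlier results of these data known, so their ranking and shares describe these data and are not independent support. Of 30 tested, 12 had a higher response at 4 h and none a lower one, 40% of the list beside 2.09% of all genes, and the list's median response change was 0.27 beside -0.037 over all genes. Over time, 3 of the 30 fell and 6 rose in GR244DO, beside 12.4% and 9.2% of all genes, while 14 fell and 4 rose in solvent, beside 11.3% and 13.4% of all genes.

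CYP81D11, a cytochrome P450 gene, had the smallest adjusted p of all genes. It had 26.5, 26.0 and 27.5 RPKM with GR244DO and 31.3, 29.5 and 29.8 RPKM with solvent at 2 h. After 4 h the values were 26.7, 23.5 and 24.4 RPKM with GR244DO and 9.81, 10.6 and 11.3 RPKM with solvent. The GR244DO libraries overlapped between the times, and the solvent libraries at 4 h lay far below all others. The solvent change over time was -1.43 (limma adjusted p = 8.23e-09) and the response change was 1.33 (SE 0.09, limma adjusted p = 2.19e-05).

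OPR1, an oxophytodienoate reductase gene, had 165, 165 and 157 RPKM with GR244DO and 87.4, 93.8 and 88.7 RPKM with solvent at 4 h. At 2 h the groups overlapped, with 189, 183 and 175 RPKM with GR244DO and 193, 175 and 178 RPKM with solvent. The level fell by 0.17 in GR244DO and by 1.01 in solvent, giving a response change of 0.84 (SE 0.08, limma adjusted p = 0.000135).

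CYP81D8 and GSTU11, a cytochrome P450 and a glutathione transferase gene, moved on both sides. CYP81D8 had 44.5, 41.8 and 44.5 RPKM with GR244DO and 29.5, 26.0 and 27.6 RPKM with solvent at 4 h, where the groups were apart. It rose by 0.42 in GR244DO and fell by 0.37 in solvent. GSTU11 rose by 0.43 in GR244DO and fell by 0.36 in solvent, and its response change was 0.79 (SE 0.09, limma adjusted p = 0.000569).

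The other 8 called genes, named after their values were seen, were UGT73B5, OPR2, GSTU7, GSTU24, UGT73B4, UGT74E2, GSTU25 and GSTF8. Of these, 7 fell in solvent while the test in GR244DO was not passed, and GSTU25 rose in GR244DO only. The members that did not pass included 8 with negative values, from -0.18 for GSTU22 to -0.78 for GSTU12 (limma adjusted p = 0.0655). Of the 12 calls, 9 held without any 1 library, all but GSTF8, GSTU7 and GSTU25, and 6 held with the close pairs averaged, those of CYP81D11, OPR1, CYP81D8, GSTU11, UGT73B5 and GSTU24.

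**Figure D3:**
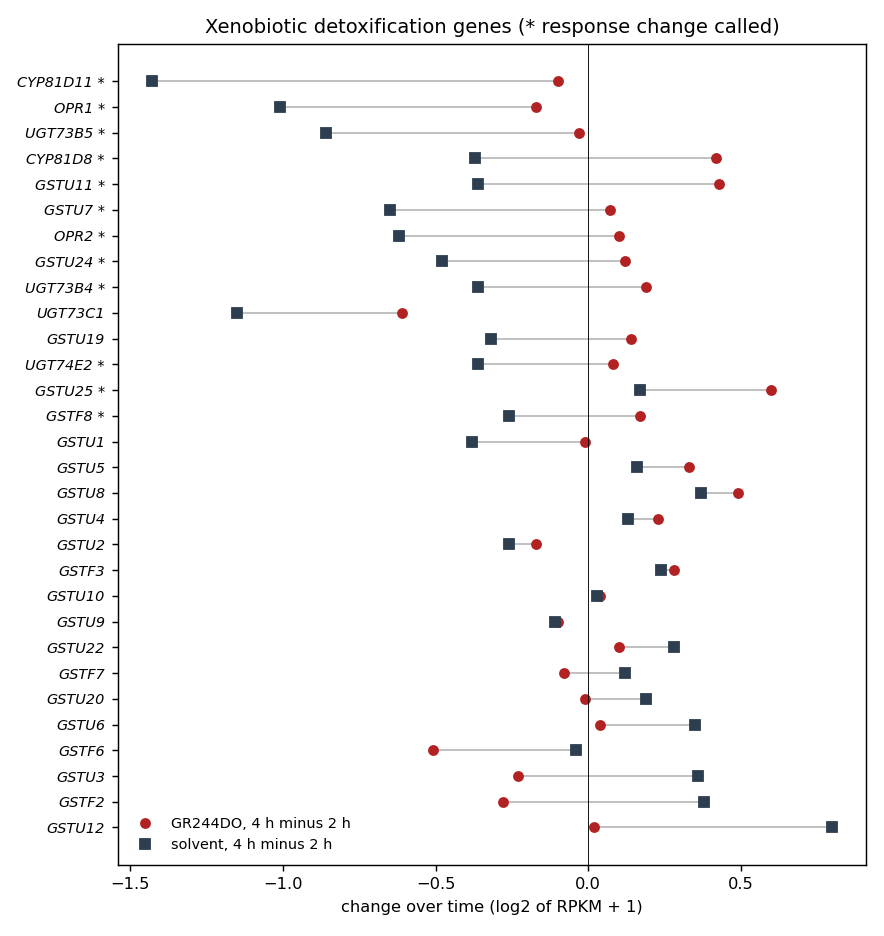
Change from 2 h to 4 h with GR244DO (red circles) and with solvent (dark squares) for the 30 xenobiotic detoxification genes tested, as log2 differences of RPKM + 1, ordered by response change. In the called genes (asterisks) the circle lies right of the square, as for CYP81D11 with -0.10 in GR244DO and -1.43 in solvent.

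Many genes of this kind are known to be induced through TGA transcription factors, which bind TGACGT. The 250 bases before the annotated start in TAIR10.1 (RefSeq) are printed for DLK2 and for the 3 called detoxification genes that hold these letters on either strand, to show where they lie, with TGACGT and its reverse complement in capitals.
DLK2, chr3:8865240-8865489, minus strand: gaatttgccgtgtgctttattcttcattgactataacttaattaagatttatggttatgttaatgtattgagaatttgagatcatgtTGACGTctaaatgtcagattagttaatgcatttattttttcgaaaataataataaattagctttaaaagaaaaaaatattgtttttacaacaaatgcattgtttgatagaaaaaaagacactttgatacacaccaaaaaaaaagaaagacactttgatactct
UGT73B4, chr2:6761385-6761634, plus strand: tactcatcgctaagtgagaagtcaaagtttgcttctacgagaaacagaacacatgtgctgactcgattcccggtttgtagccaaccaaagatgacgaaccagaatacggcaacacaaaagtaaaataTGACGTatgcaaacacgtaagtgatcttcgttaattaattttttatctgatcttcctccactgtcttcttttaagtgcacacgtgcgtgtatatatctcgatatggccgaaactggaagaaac
GSTF8, chr2:19556076-19556325, plus strand: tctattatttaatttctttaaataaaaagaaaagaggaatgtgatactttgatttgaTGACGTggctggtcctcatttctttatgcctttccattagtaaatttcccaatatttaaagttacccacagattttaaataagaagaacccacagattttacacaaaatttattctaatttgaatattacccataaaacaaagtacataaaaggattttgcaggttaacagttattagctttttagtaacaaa
GSTU7, chr2:12618900-12619149, minus strand: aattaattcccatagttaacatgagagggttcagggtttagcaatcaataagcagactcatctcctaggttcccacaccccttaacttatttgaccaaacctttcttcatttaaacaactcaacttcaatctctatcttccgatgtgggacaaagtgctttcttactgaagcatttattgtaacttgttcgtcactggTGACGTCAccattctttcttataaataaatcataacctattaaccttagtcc
In GSTU7 the matches on both strands overlap each other. TGACGT was found on either strand in 3 of 12 called detoxification genes (25%) and in 6 of the 30 tested (20%), so the called genes held it about as often as the whole list. With the close pairs averaged these 3 calls ended, at limma adjusted p of 0.119 for UGT73B4, 0.153 for GSTF8 and 0.119 for GSTU7. The 6 detoxification calls that held with the pairs averaged were of genes without these letters in the 250 bases. The share was 16.3% of called higher genes, 12% of called lower genes and 8.0% of all genes tested (1522 of 19035 with a promoter). Of the other 4 motifs searched, the W-box TTGACC was in more of the called detoxification genes, 5 of 12 (41.7%), beside 33.3% of the list and 12.2% of all genes. The G-box CACGTG and the auxin response element TGTCTC were in 3 of 12 each, beside 7.18% and 10.6% of all genes, and the evening element AAAATATCT in 0 of 12, beside 2.5%. A match is a run of letters and not a measured binding site.

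In several further genes with a higher response the solvent libraries moved farther, downward. AT5G61820, annotated as a stress up-regulated Nod 19 protein, had 62.1, 64.6 and 62.5 RPKM with GR244DO and 29.5, 29.8 and 31.0 RPKM with solvent at 4 h. At 2 h it had 60.8, 63.6 and 59.9 RPKM with GR244DO and 54.1, 56.4 and 56.4 RPKM with solvent, so the solvent libraries at 4 h lay far below the other 9. Its response change was 0.90 (SE 0.07, limma adjusted p = 2.86e-05). UGT73B2, a flavonoid glucosyltransferase gene, changed by 0.84, the organic cation transporter gene OCT5 by 0.87, AT1G21680 by 0.89 and the dehydrogenase gene AT5G17000 by 0.63. UGT73B2 moved on both sides, rising by 0.20 in GR244DO (limma adjusted p = 0.0402) and falling by 0.64 in solvent. OCT5 fell by 0.66 in solvent, and its change of 0.21 in GR244DO did not pass (limma adjusted p = 0.0515), although its GR244DO libraries at 4 h were all above those at 2 h. AT1G21680 and AT5G17000 fell in solvent only, by 0.79 and 0.61, with changes of 0.10 and 0.01 in GR244DO. AT5G61820 likewise fell in solvent only, by 0.87, with a change of 0.04 in GR244DO.

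In other genes GR244DO rose. SIP2, an α-galactosidase gene of raffinose breakdown, had 121, 121 and 115 RPKM with GR244DO and 65.7, 64.0 and 66.1 RPKM with solvent at 4 h. At 2 h it had 84.3, 80.9 and 84.7 RPKM with GR244DO and 76.2, 76.0 and 75.7 RPKM with solvent, so the groups were apart at both times and farther apart at 4 h. It rose by 0.51 in GR244DO and fell by 0.22 in solvent. The carbonic anhydrase gene CA2 rose in both, by 0.79 in GR244DO and by 0.21 in solvent. DOX1, an α-dioxygenase gene, rose by 0.31 in GR244DO and fell by 0.39 in solvent, so its solvent libraries moved farther.

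The GR244DO side also led in NRT2.1, a high-affinity nitrate transporter gene, with 120.2, 117 and 126 RPKM with GR244DO and 77.6, 64.5 and 81.6 RPKM with solvent at 4 h. At 2 h the groups overlapped, at 68.6 to 82.8 RPKM with GR244DO and 74.3 to 77.1 RPKM with solvent. NRT2.1 rose by 0.69 in GR244DO, with a change of -0.02 in solvent. AGP13, an arabinogalactan protein gene, rose by 1.14 in GR244DO, and its change of 0.18 in solvent did not pass. CP12-2, a regulator of the Calvin cycle, rose by 1.1 in GR244DO and 0.33 in solvent, and RVE2, a clock-related MYB gene, by 1.37 in GR244DO and 0.75 in solvent. With the close pairs averaged the calls of these 4 genes ended, at limma adjusted p of 0.0691 for NRT2.1, 0.0821 for AGP13, 0.0636 for CP12-2 and 0.128 for RVE2.

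Light-harvesting genes, which encode the chlorophyll-binding antenna proteins, had 4 called members of 20, all with a higher response at 4 h (20% of the list beside 1.13% of all genes). The median response change was 0.19, all 20 values were above 0, and the median stayed between 0.15 and 0.26 under the alternatives. The median response itself was -0.21 at 2 h and 0 at 4 h, beside 0.055 and 0.02 over all genes. The typical member was thus below solvent at 2 h and level with it at 4 h. Over time, 17 of the 20 fell in GR244DO and 18 fell in solvent, beside 12.4% and 11.3% of all genes. LHCB2.3 had 23.9, 23.0 and 23.1 RPKM with GR244DO and 30.5, 32.0 and 30.5 RPKM with solvent at 2 h. After 4 h the levels were 5.57, 5.13 and 5.50 RPKM with GR244DO and 4.62, 4.86 and 4.07 RPKM with solvent. The GR244DO libraries were below solvent at 2 h and above it at 4 h. The level fell by 1.92 in GR244DO and by 2.54 in solvent, and the response change was 0.62 (SE 0.09, limma adjusted p = 0.00298).

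LHCA6 rose in GR244DO (0.51) and LHCB4.3 did so (0.35), with changes of 0.05 and -0.12 in solvent that did not pass, while LHCA3 fell less in GR244DO (-0.63) than in solvent (-0.93). The call of LHCB4.3 ended without GR244DO 4 h replicate 1 (limma adjusted p = 0.0551), and that of LHCA3 without any 1 of 10 libraries (up to 0.13) and under 4 other settings. None of the 4 passed with the close pairs averaged, at limma adjusted p of 0.0602 for LHCB2.3, 0.121 for LHCA6, 0.198 for LHCB4.3 and 0.457 for LHCA3. The summed level of the 20 shoot marker genes was 20465 to 21357 RPKM with GR244DO and 21944 to 23110 RPKM with solvent at 2 h, and 19377 to 22029 RPKM with GR244DO and 17081 to 19550 RPKM with solvent at 4 h. Most of this sum came from Rubisco small subunit genes, with RBCS1A alone at a median of 10485 RPKM. It also holds CAB3, which is LHCB1.2 of the light-harvesting list, so it is not a measure of shoot content alone. Its part in the result was not tested. Near-identical LHCB copies may share reads.

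Of 16 genes of sugar starvation and dormancy, 3 had a higher response and none a lower one (18.8% of the list beside 2.09% of all genes), with a list median of 0.27. DRM2, a dormancy-associated gene, had 283, 264 and 277 RPKM with GR244DO and 419.6, 375 and 385 RPKM with solvent at 2 h. At 4 h it had 182, 177 and 202 RPKM with GR244DO and 167, 155 and 173 RPKM with solvent. GR244DO was below solvent at 2 h and above it at 4 h, since the level fell by 0.55 in GR244DO and by 1.25 in solvent. DIN10, a raffinose synthase family gene, changed by 0.59, with falls of 0.35 in GR244DO and 0.94 in solvent. ASN1, an asparagine synthetase gene, changed by 0.74, with falls of 0.47 in GR244DO and 1.21 in solvent. AT3G15450, annotated as aluminum induced, had the same pattern with falls of 1.02 in GR244DO and 1.91 in solvent. ASN1 did not pass with the close pairs averaged (limma adjusted p = 0.11).

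Hypoxia genes stood on the other side. Of 12 tested, 4 had a lower response at 4 h and none a higher one (33.3% of the list beside 0.96% of all genes), with a list median of -0.35. Over time, 9 of the 12 fell in GR244DO, beside 12.4% of all genes, and 2 fell in solvent, near the 11.3% of all genes. ADH1, the alcohol dehydrogenase gene of fermentation, had 18.7, 20.4 and 19.5 RPKM with GR244DO and 16.6, 16.9 and 15.6 RPKM with solvent at 2 h. By 4 h ADH1 had 11.1, 11.3 and 10.6 RPKM with GR244DO and 16.5, 18.4 and 15.9 RPKM with solvent. GR244DO was above solvent at 2 h and below every other library at 4 h, and solvent overlapped between the times. It fell by 0.78 in GR244DO, with a change of 0.04 in solvent, and the response change was -0.82 (SE 0.09, limma adjusted p = 0.000509).

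HB1, a hemoglobin gene, changed by -0.58, with a fall of 0.28 in GR244DO and a rise of 0.30 in solvent. HRA1, a transcription factor gene of the hypoxia response, changed by -0.42, with a fall of 0.21 in GR244DO and a rise of 0.21 in solvent. RAP2.3, an ethylene response factor gene, changed by -0.36, with a fall of 0.36 in GR244DO and a change of -0.01 in solvent that did not pass. The calls of HRA1 and RAP2.3 each ended without any 1 of 10 libraries (limma adjusted p up to 0.0919 and 0.124), and under 2 and 5 other settings. ADH1 passed with the close pairs averaged (limma adjusted p = 0.022), and HB1 (0.203), HRA1 (0.27) and RAP2.3 (0.472) did not.

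The 12 lower responses with the smallest adjusted p included 3 peroxidase genes and 1 chitinase family gene. AT5G39580, a peroxidase gene, had 51.6, 53.6 and 54.6 RPKM with GR244DO and 48.5, 56.8 and 55.8 RPKM with solvent at 2 h, where the groups overlapped. At 4 h it had 28.8, 29.4 and 27.9 RPKM with GR244DO and 58.9, 59.2 and 57.3 RPKM with solvent. The GR244DO libraries at 4 h lay far below the other 9, and the level fell by 0.87 in GR244DO with a change of 0.12 in solvent that did not pass. The response change was -0.99 (SE 0.08, limma adjusted p = 9.24e-05). The peroxidase gene AT1G49570 moved on both sides, falling by 0.52 in GR244DO and rising by 0.25 in solvent (limma adjusted p = 0.00352), and its response changed by -0.77. AT5G19890, also a peroxidase gene, changed by -0.94, with a fall of 0.88 in GR244DO and a change of 0.06 in solvent that did not pass.

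AT2G43620, a chitinase family gene, had 69.0, 66.9 and 82.2 RPKM with GR244DO and 170.3, 171 and 174 RPKM with solvent at 4 h. At 2 h the groups overlapped, at 120.2 to 145 RPKM with GR244DO and 145 to 148 RPKM with solvent. It fell by 0.85 in GR244DO and rose by 0.22 in solvent, a response change of -1.08. RNS1, a secreted ribonuclease gene, changed by -0.80, with a fall of 0.52 in GR244DO and a rise of 0.28 in solvent. AT5G49700, an AT-hook gene, fell by 0.45 in GR244DO and rose by 0.35 in solvent, and AT1G80130 fell by 0.33 and rose by 0.52. WRKY49, a transcription factor gene at 1.32 to 4.17 RPKM over the 12 libraries, had only 93.2 reads on average. It fell by 0.95 in GR244DO and rose by 0.27 in solvent, a response change of -1.22.

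FTM1, a stearoyl-ACP desaturase family gene, had opposite responses at the 2 times, each past the test. It had 7.56, 7.75 and 8.04 RPKM with GR244DO and 5.52, 4.67 and 4.78 RPKM with solvent at 2 h. By 4 h FTM1 had 6.47, 5.20 and 5.70 RPKM with GR244DO and 10.6, 9.36 and 10.2 RPKM with solvent. The groups did not overlap at either time, with GR244DO above at 2 h and below at 4 h. Its response was 0.56 at 2 h (limma adjusted p = 0.00419) and -0.71 at 4 h (limma adjusted p = 0.000105), as the level fell by 0.38 in GR244DO and rose by 0.89 in solvent.

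Among hormone and growth genes, the organ-size gene ARGOS fell in GR244DO by 0.65, with a change of 0.17 in solvent that did not pass, and its response changed by -0.82. ST2A, a hydroxyjasmonate sulfotransferase gene, had 13.0, 12.9 and 14.5 RPKM with GR244DO and 27.9, 27.5 and 30.3 RPKM with solvent at 4 h, against 36.2, 33.2 and 32.9 RPKM with GR244DO and 38.9, 41.6 and 40.3 RPKM with solvent at 2 h. It fell on both sides, by 1.28 in GR244DO and by 0.48 in solvent. ETR2, an ethylene receptor gene, changed by -0.47, with a fall of 0.57 in GR244DO and a change of -0.10 in solvent that did not pass. COR15A, a cold-regulated gene responsive to abscisic acid, also changed by -0.47, with falls of 1.12 in GR244DO and 0.66 in solvent. With the close pairs averaged neither passed (limma adjusted p = 0.227 for ETR2 and 0.119 for COR15A).

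AHP4, a phosphotransfer gene of cytokinin signalling, had a response at 2 h that was smaller at 4 h. It had 6.01, 5.83 and 5.99 RPKM with GR244DO and 3.03, 2.71 and 2.72 RPKM with solvent at 2 h. At 4 h the groups overlapped, with 3.18, 4.41 and 3.80 RPKM with GR244DO and 3.14, 3.98 and 2.99 RPKM with solvent. It fell by 0.54 in GR244DO, with a change of 0.19 in solvent that did not pass. The response change was -0.73 (SE 0.15, limma adjusted p = 0.0188), and the call ended with the close pairs averaged (0.0893) and without GR244DO 2 h replicate 3 (0.0563), GR244DO 4 h replicate 1 (0.0551) or solvent 2 h replicate 2 (0.0543).

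**Figure D4:**
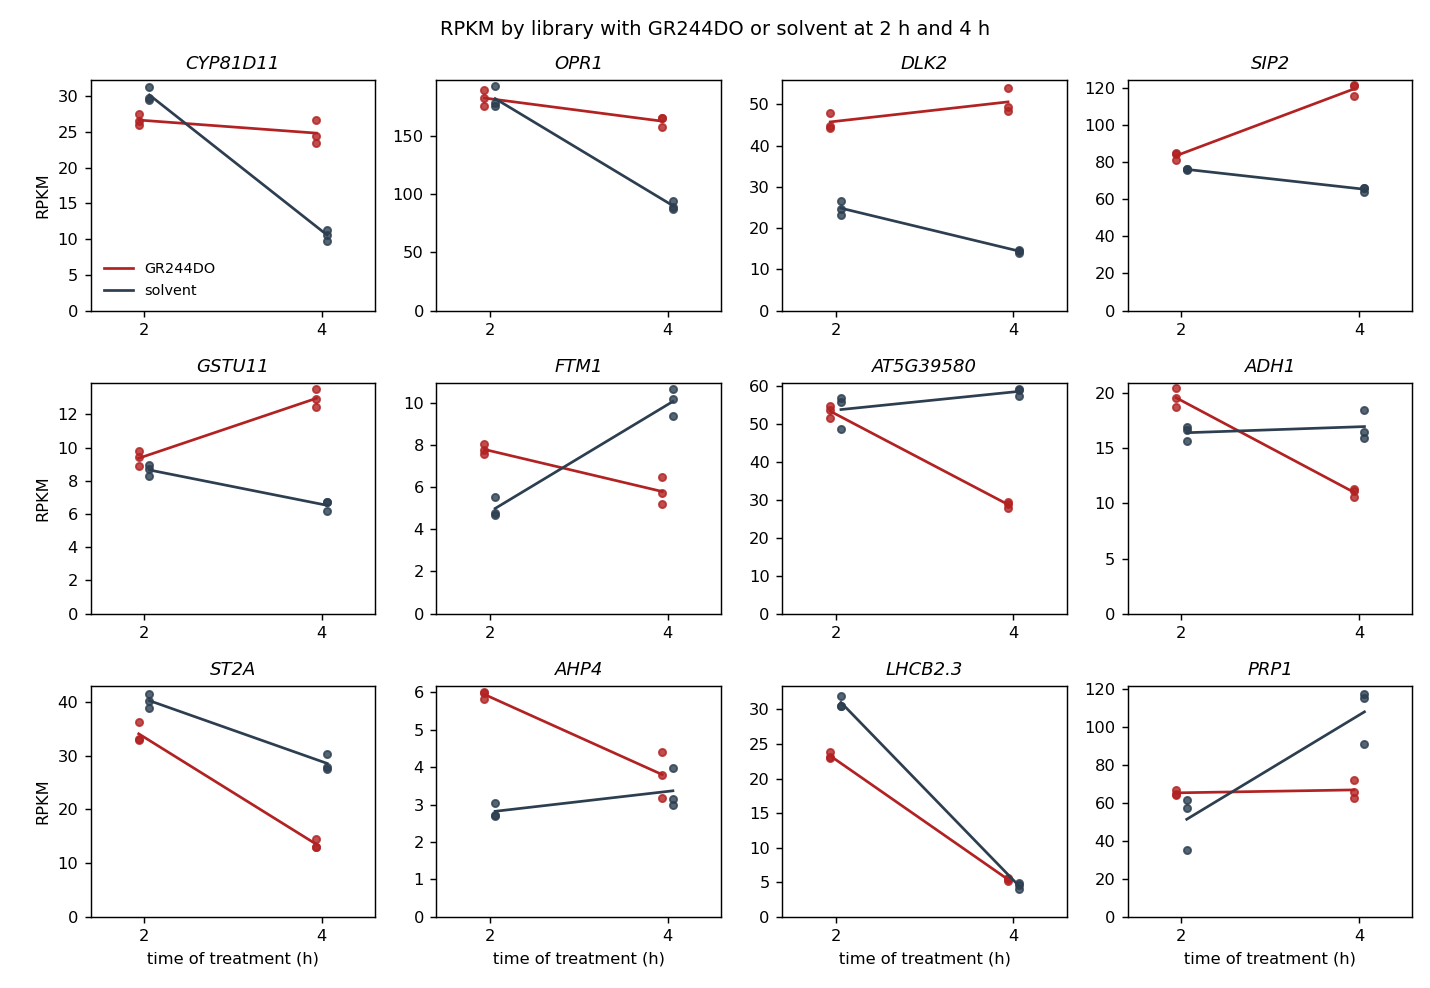
RPKM in each library (points) and group means (lines) at 2 h and 4 h with GR244DO (red) and solvent (dark) for 12 genes, each with its own axis from 0. In CYP81D11, OPR1 and DLK2 the solvent line falls, in AT5G39580, ADH1 and AHP4 the GR244DO line falls, and in FTM1 the lines cross.

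Some genes moved far on both sides. AT2G36690, a dioxygenase family gene, had 15.3, 15.2 and 15.5 RPKM with GR244DO and 15.3, 15.9 and 14.3 RPKM with solvent at 2 h, and 2.34, 2.72 and 2.27 RPKM with GR244DO and 3.80, 4.51 and 4.50 RPKM with solvent at 4 h. It fell by 2.25 in GR244DO and by 1.62 in solvent, and AT3G55240, of unknown function, fell by 1.3 and 0.78. AT2G23120, a late embryogenesis abundant gene, fell by 1.4 in GR244DO and by 0.96 in solvent. The opposite held for AT4G12545, a lipid-transfer family gene, which rose by 0.52 in GR244DO and 1.28 in solvent, and for AT2G34610, which rose by 0.66 and 1.2. The call of AT2G23120 ended without any 1 of 3 libraries (limma adjusted p up to 0.0571) and under 2 other settings, and that of AT2G34610 without any 1 of 5 (up to 0.0668) and under 1 other setting. With the close pairs averaged, AT4G12545 passed and the others did not, at limma adjusted p of 0.051 for AT2G36690, 0.119 for AT3G55240, 0.258 for AT2G23120 and 0.156 for AT2G34610.

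Cell wall loosening genes, which encode expansins and xyloglucan-modifying enzymes, had 3 members of 24 with a lower response and none with a higher one (12.5% of the list beside 0.96% of all genes), at a list median of -0.06. EXPA11, XTH16 and XTH18 fell in GR244DO only, by 0.57, 0.33 and 0.40, with changes of 0.03, 0.10 and -0.05 in solvent. With the close pairs averaged none of the 3 passed (limma adjusted p = 0.105, 0.105 and 0.197), and the call of XTH18 also ended without any 1 of 9 libraries (up to 0.0778) and under 2 other settings. PRP1, a proline-rich cell wall gene, had 65.8, 62.7 and 72.3 RPKM with GR244DO and 118, 91.3 and 115 RPKM with solvent at 4 h, and 64.4, 64.8 and 66.9 RPKM with GR244DO and 35.5, 57.4 and 61.4 RPKM with solvent at 2 h. The solvent libraries moved, by 1.09, with a change of 0.03 in GR244DO, and the call ended without any 1 of 7 libraries (limma adjusted p up to 0.0753), with the close pairs averaged (0.147) and with no filter. The summed level of the 22 root marker genes was 1488 to 1492 RPKM with GR244DO and 1346 to 1379 RPKM with solvent at 2 h, and 1581 to 1698 RPKM with GR244DO and 1526 to 1582 RPKM with solvent at 4 h. Most of this sum came from PYK10, at 1081 to 1392 RPKM, and it also holds the called gene NRT2.1, so it is not a measure of root content alone. Its part in these changes was not tested.

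The remaining lists had at most 3 called members each, to be read beside the 2.09% called of all genes. Ethylene genes had 2 higher and 1 lower (ETR2) of 19, jasmonate genes 2 higher of 23, abscisic acid genes 1 higher and 1 lower (COR15A) of 20, flavonoid and anthocyanin genes 1 higher of 16 and iron genes 1 higher of 17. Nitrate genes had 1 higher of 20 (NRT2.1, 5%), which was also the 1 called of 20 root cell markers, and early touch and wound genes 1 higher of 19 (5.26%). Morning-phased clock genes had 1 higher of 9 (RVE2) and afternoon- and evening-phased clock genes 1 higher of 14. Auxin genes had 1 lower of 37 (ARGOS, 2.7%, near the share of all genes), cytokinin genes 1 lower of 17 (AHP4) and phosphate genes 1 lower of 14. None passed of 21 light signalling, 11 heat shock, 29 cell cycle and 19 shoot marker genes.

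ERF6, an ethylene response transcription factor gene, changed by 0.59, with a fall of 0.57 in solvent and a change of 0.01 in GR244DO. ACS6, of ethylene synthesis, changed by 0.41, with a fall of 0.25 in solvent and a change of 0.16 in GR244DO. The lipoxygenase gene LOX2 changed by 0.54, with a fall of 0.42 in solvent and a change of 0.12 in GR244DO, whereas LOX4, of the same enzyme family, changed by 0.56, with a rise of 0.63 in GR244DO and a change of 0.08 in solvent. The dehydrin gene RAB18 changed by 0.70, with a fall of 0.84 in solvent and a change of -0.14 in GR244DO. The zinc finger gene ZAT12 changed by 0.52, with a fall of 0.33 in solvent and a change of 0.18 in GR244DO. PS3, a glycerol-3-phosphate transporter gene, changed by -0.35, with a rise of 0.35 in solvent and a change of 0.00 in GR244DO.

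F3-PRIME-H, a flavonoid hydroxylase gene, changed by 0.62, with a rise of 0.77 in GR244DO and a change of 0.14 in solvent. VTL5, a vacuolar iron transporter-like gene, changed by 0.87, with a rise of 0.46 in GR244DO and a fall of 0.41 in solvent. FKF1, an F-box photoreceptor gene, changed by 0.40, with falls of 0.54 in GR244DO and 0.94 in solvent. With the close pairs averaged none of these 10 genes passed, at limma adjusted p of 0.0602 for ERF6, 0.273 for ACS6, 0.105 for LOX2, 0.231 for LOX4, 0.119 for RAB18, 0.0858 for ZAT12, 0.302 for PS3, 0.119 for F3-PRIME-H, 0.119 for VTL5 and 0.289 for FKF1. The calls of ACS6, LOX4, RAB18, VTL5, FKF1 and PS3 also ended without any 1 of 9, 5, 8, 4, 8 and 11 libraries, and those of ACS6, RAB18, VTL5, FKF1 and PS3 under 1, 1, 1, 1 and 5 other settings.

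**Figure D5:**
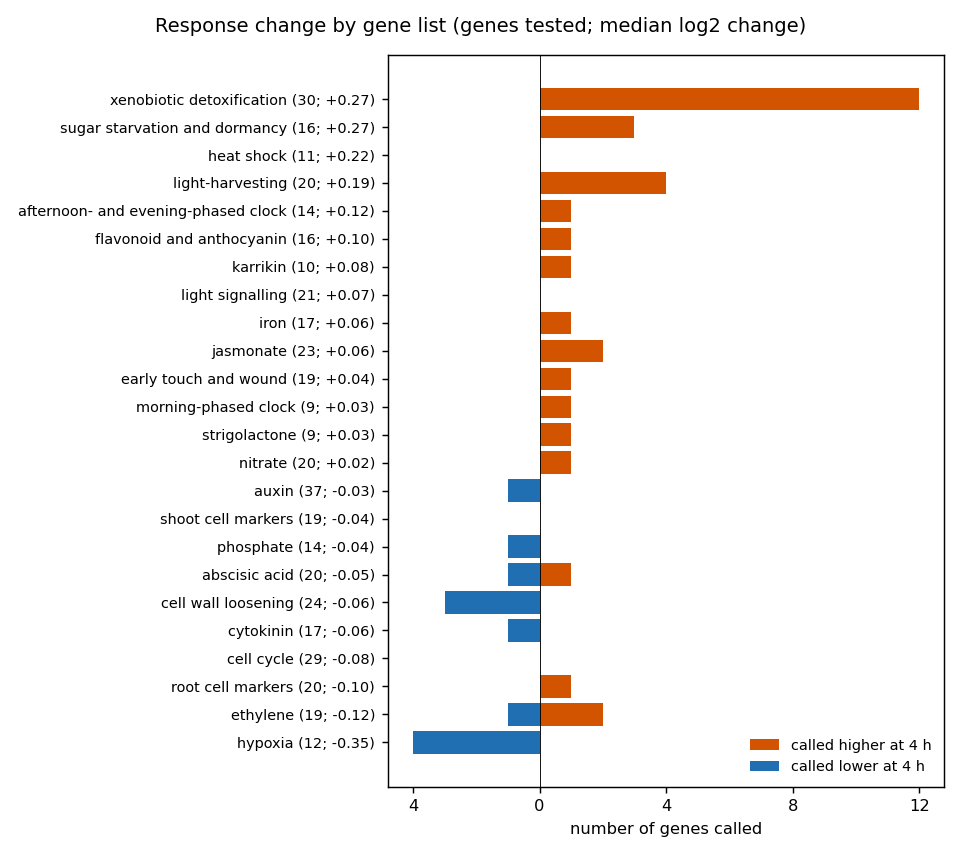
Number of genes called with a higher (orange, right) or lower (blue, left) response at 4 h in each gene list, with the genes tested and the median log2 response change after each name. Xenobiotic detoxification had 12 higher of 30 and hypoxia 4 lower of 12.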

How the data were processed

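RNA of 15 libraries was sequenced, and 12 entered the comparison. The authors deposited 1 table of RPKM per gene. Per the submitters' processing notes, STAR, featureCounts and DESeq were used with the TAIR10 genome. Not given in the sources used here are the versions, the strand and the treatment of multi-mapping reads, so near-identical and overlapping genes are uncertain. All 347846 values above 0 were whole reads within 0.02 reads once gene length and depth were recovered. A single entry with no gene name was left out.

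From the deposited RPKM, log2(RPKM + 1) was fitted with limma 3.58.1 (R 4.3.3) over 12 libraries in 4 groups, with a variance trend on the mean value and Benjamini-Hochberg adjustment over 19053 genes. Genes needed 1 RPKM in 3 libraries. The pseudocount understates changes of low genes. Tested on simulated data, the fit recovered effect sizes and unadjusted p-values, but more of its calls were false than the adjusted threshold of 0.05 states. How the false calls were spread over read numbers and gene lengths was not recorded. The simulated replicates all had the same spread, unlike the replicates here. A trend on reads brought the false share close to the threshold, and it was added as an alternative after this was seen. It called 400 genes, 381 of them shared with the 398. Of the 398, 66 had under 200 reads on average, and single calls among these are the least certain. Among the called genes named by rule they were WRKY49, AHP4, AT2G34610, AGP13, ASN1, RAB18, VTL5 and MYB75.

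Genes were named by rule: 12 per direction with the smallest adjusted p, up to 4 called genes per list, all strigolactone and karrikin genes, and 3 per side and direction with the largest change over time. Of 517 list entries in 24 lists, 510 matched the table. The members, lists and rules were chosen with earlier results of these data known. Replicate numbers were not treated as pairs.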

Additional observations from a re-analysis of the deposited data

Results flagged for a closer look

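The difference between the response at 4 h and the response at 2 h was itself tested, and it passed in 398 genes. The genes named in the text that passed are given with their response change on the log2 scale (limma adjusted p under 0.05), each as a value with no explanation. Higher responses at 4 h of the larger size were CYP81D11 1.33, AGP13 0.96, AT5G61820 0.90, AT3G15450 0.89, AT1G21680 0.89, DLK2 0.88, VTL5 0.87, OCT5 0.87, UGT73B2 0.84, OPR1 0.84, CYP81D8 0.79, GSTU11 0.79, CP12-2 0.77, ASN1 0.74, SIP2 0.73, NRT2.1 0.71, DOX1 0.70 and RAB18 0.70. Smaller higher ones were DRM2 0.69, AT5G17000 0.63, RVE2 0.62, F3-PRIME-H 0.62, LHCB2.3 0.62, DIN10 0.59, ERF6 0.59, CA2 0.58, LOX4 0.56, LOX2 0.54, MYB75 0.54, ZAT12 0.52, LHCB4.3 0.46, LHCA6 0.45, ACS6 0.41, FKF1 0.40 and LHCA3 0.30. Lower responses at 4 h of the larger size were FTM1 -1.26, WRKY49 -1.22, AT2G43620 -1.08, PRP1 -1.06, AT5G39580 -0.99, AT5G19890 -0.94, AT1G80130 -0.85, ARGOS -0.82, ADH1 -0.82, RNS1 -0.80, AT5G49700 -0.80, ST2A -0.79, AT1G49570 -0.77 and AT4G12545 -0.76. Smaller lower ones were AHP4 -0.73, AT2G36690 -0.63, EXPA11 -0.60, HB1 -0.58, AT2G34610 -0.55, AT3G55240 -0.52, ETR2 -0.47, COR15A -0.47, AT2G23120 -0.44, XTH16 -0.43, HRA1 -0.42, RAP2.3 -0.36, XTH18 -0.35 and PS3 -0.35. With the 3 close replicate pairs averaged, 29 of these 63 named genes still passed, and the other 34 had limma adjusted p of 0.051 to 0.472. The 34 were LHCB2.3, COR15A, LOX2, EXPA11, ASN1, ERF6, CP12-2, NRT2.1, XTH16, AT2G36690, ZAT12, AGP13, RVE2, LHCA6, F3-PRIME-H, AT3G55240, ETR2, LHCB4.3, HB1, AT2G23120, AHP4, VTL5, AT2G34610, LOX4, PRP1, XTH18, FKF1, HRA1, RAB18, MYB75, LHCA3, ACS6, RAP2.3 and PS3. Of the 63, 47 passed whichever library was left out.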

How the results depend on the processing

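No gene called in both the main fit and an alternative reversed direction, and none of the 63 named called genes changed sign under any alternative. For the other called genes, a change of sign after a lost call was not checked. The counts of 398 called genes, 215 higher and 183 lower were within 1.5 times under the replicate block (469, 237 and 232), all 15 libraries in the fit (328), a filter of 5 RPKM (403), no filter (349), a pseudocount of 0.1 (394), quantile normalization (401), median-of-ratios scaling (348), no variance trend (337), limma-voom on recovered reads (378), gene length trends removed (392) and the variance trend on reads added after seeing the data (400). They were 13, 4 and 9 with a minimum change of 2-fold, and 63, 34 and 29 with near-identical pairs averaged, where fewer samples enter. Leaving out 1 library gave 223 to 594 called, 125 to 303 higher and 98 to 291 lower. Nothing in the labels says that replicate numbers pair the libraries, and the condition set for pairing, every same-numbered correlation of deviations over 0.1, was not met: they ran from -0.187 to 0.495, with 10 of 18 over 0.1. As a hint from the data towards pairing, 23 of 36 were highest with their own number. The block called 469 genes, 386 of them among the 398. Among named genes, 12 values called in neither setting changed sign. With 3 libraries a group, a median standard error of 0.121 limits the small changes that can be seen. In simulated data more calls were false than the threshold states.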

Other observations

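Genes of photorespiration, chosen after their values were seen as were the families below, had 6 of 12 members with a higher response at 4 h and none lower (50% beside 2.09% of all genes), with a median of 0.34. They were the glycolate oxidase genes GOX1 (0.51) and GOX2 (0.51), AGT (0.65), HPR (0.52), GLDP1 (0.52) and GLDP2 (0.41). The median change over time of the 12 members was 0.24 in GR244DO and -0.2 in solvent. Of these calls 4 held without any 1 library and 1 with the close pairs averaged. Subunits of the chloroplast NDH complex, which carries cyclic electron flow, had 7 of 19 higher (36.8%), with a median of 0.32. Of these 7 calls, 2 held without any 1 library and 0 with the pairs averaged (limma). The 7 include CRR3, which was added to the family by name.

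Families were taken by the wording of the annotated product or by symbol, so members annotated otherwise were not counted. Peroxidase superfamily genes had 5 lower and 2 higher of 51 (13.7% beside 2.09% of all genes), of which 6 held without any 1 library and 4 with the pairs averaged. The 2 higher ones include DOX1, named above as an α-dioxygenase gene, whose annotated product is a peroxidase superfamily protein. Xyloglucan endotransglucosylase genes had 5 lower and 1 higher of 28 (21.4%), of which 5 held without any 1 library and 3 with the pairs averaged. The lower ones were led by XTH13 (-0.91) and XTH26 (-0.77). The change over time in XTH13 was -0.38 in GR244DO and 0.54 in solvent. In XTH26 it was 0.82 in solvent, and the change of 0.05 in GR244DO did not pass. Lipid-transfer family genes had 6 lower and 2 higher of 55 (14.5%), of which 5 and 3 held. Dirigent genes had 4 lower of 19 (21.1%), of which 1 and 1 held, and root hair specific genes 3 lower of 14 (21.4%), of which 1 and 0 held. UDP-glycosyltransferase genes had 11 higher of 102 (10.8%), of which 8 and 4 held. These 11 include UGT73B4, UGT73B5 and UGT74E2 of the detoxification list. The called gene DOGT1 was not counted, since its product wording did not match. Zinc-binding dehydrogenase genes had 4 higher of 7 (57.1%), of which 2 and 1 held. The 4 include the alkenal reductase gene AER, which was added to the family by name, and this raises the share.

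In the solvent libraries at 0 h, which are in no comparison here, CYP81D11 had 37.1, 38.4 and 35.1 RPKM and OPR1 had 210.0, 219.7 and 186 RPKM. DLK2 had 10.1, 9.39 and 10.1 RPKM, and LHCB2.3 had 162, 128 and 147 RPKM.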
